A study of Mus musculus with 21 samples.

Results

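The genes described here are 9 receptors and 1 enzyme of extracellular purine signalling in mouse macrophages: P2rx4, P2rx5, P2rx7, P2ry2, P2ry6, P2ry14, Adora2a, Adora2b, Adora3 and Entpd1. They were chosen by symbol, with earlier results of these data known. Each was matched to its Ensembl identifier among the 47069 identifiers of the count table. All 10 had a row, and all 10 passed the filter on low counts that left 15581 genes for testing. For Adora3, 2 identifiers carry the symbol in the annotation used for matching, and ENSMUSG00000000562 was taken because the end of the other row lies where RefSeq places the end of the overlapping gene Tmigd3.

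The cells were bone-marrow-derived macrophages of wild-type C57BL/6 mice aged 8 to 10 weeks, grown from marrow with M-CSF. Their RNA was sequenced in 7 groups of 3 libraries. Untreated cells were taken at 0 h. The other groups received IL4 and IL13 (called IL below), IL with TNF, or TNF, each cytokine at 10 ng/ml, and were taken at 6 h or at 24 h. There was no untreated group at 6 h or 24 h, so a difference from the 0 h cells holds the treatment and the time in culture together. Nothing in the labels ties libraries to separate mice or cultures, so the p-values measure the spread between these libraries, which may be technical.

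Cells that are stressed or dying release ATP, UTP, UDP and UDP-glucose, and macrophages read these nucleotides through ligand-gated P2X channels and G-protein-coupled P2Y receptors. Ectonucleotidases at the cell surface, of which CD39 (the product of Entpd1) is the main one on macrophages, break ATP and ADP down to AMP, and CD73 (Nt5e) turns AMP into adenosine. Adenosine then acts on its own receptors, among which the products of Adora2a and Adora2b raise cyclic AMP and dampen inflammatory output of macrophages.

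Depth was 28.1 to 48.7 M counts a library. The 8 macrophage markers listed had counts in every group, summing to 11654 to 42071 CPM (counts scaled to a common library total with TMM factors) a library. Most of the sum was Lyz2, at a mean of 17990 CPM in untreated cells, and levels of single markers differed between groups. Each list of other cell types summed to at most 30.4 CPM a library. Macrophage markers thus had by far the highest sum of the lists, which does not exclude other cells. Untreated replicate 2 stood apart: it had a count for 27761 genes, against 16996 to 20631 in the other libraries. The Y-linked gene Ddx3y was at 41.8 to 50.9 CPM in the 6 libraries of IL and IL with TNF at 24 h and had no count in the other 15, and Ifi202b, which differs between mouse strains, was at 30.3 to 64.2 CPM in the 6 libraries of IL and IL with TNF at 6 h and had no count in the rest. The libraries thus fall into 3 sets: untreated with TNF alone, IL at 6 h with and without TNF, and IL at 24 h with and without TNF. Comparisons of TNF with its own background stay within a set. Comparisons of IL with untreated cells, or of IL with TNF against TNF alone, run across sets, where treatment and set cannot be told apart. The TNF effects within IL at 6 h and at 24 h come from different sets, so time and set cannot be told apart in their difference. In bulk RNA, fewer cells of a type and less RNA per cell cannot be told apart either.

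Several of the genes lie next to each other. On mouse chromosome 5 (RefSeq, GRCm38.p6, as for all coordinates here), P2rx7 (ENSMUSG00000029468, chr5:122643927-122692336, plus strand) is followed 15181 bases later by P2rx4 (ENSMUSG00000029470, chr5:122707518-122729739, plus strand), with 1 annotated gene, Gm10064, between them. On chromosome 7, P2ry6 (ENSMUSG00000048779, chr7:100937630-100975498) and P2ry2 (ENSMUSG00000032860, chr7:100996568-101012053) lie on the minus strand, 21069 bases apart with no gene between them. P2rx5 (ENSMUSG00000005950, chr11:73155389-73172687, plus strand) and Adora2b (ENSMUSG00000018500, chr11:62248984-62266452, plus strand) are on chromosome 11. Adora2a (ENSMUSG00000020178) is at chr10:75316877-75334792 on the plus strand and Entpd1 (ENSMUSG00000048120) at chr19:40612366-40741602 on the plus strand. P2ry14 (ENSMUSG00000036381, chr3:59114623-59153492, minus strand) lies inside Med12l on the opposite strand, with exons apart, and Adora3 at chr3:105904421-105908928 on the plus strand. The counts are of whole genes and do not separate their exons.

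TNF alone raised P2rx4 but passed no test for its neighbour P2rx7, P2ry14 rose with TNF alone, and Adora2b was higher with IL and highest with IL and TNF at 6 h, so the 250 bases before a RefSeq start of each are shown 5′ to 3′, from RefSeq on GRCm38.p6. The windows are chr5:122643677-122643926 for P2rx7, chr5:122707294-122707543 for P2rx4, chr3:59153493-59153742 (minus strand, the outermost of 4 starts) for P2ry14 and chr11:62248734-62248983 for Adora2b. Capitals mark the AP-1 motif TGANTCA.
P2rx7: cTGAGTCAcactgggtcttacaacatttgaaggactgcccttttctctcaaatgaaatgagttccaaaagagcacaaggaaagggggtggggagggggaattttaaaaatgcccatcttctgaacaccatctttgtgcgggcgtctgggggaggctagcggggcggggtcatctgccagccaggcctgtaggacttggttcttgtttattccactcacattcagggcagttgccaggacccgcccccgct
P2rx4: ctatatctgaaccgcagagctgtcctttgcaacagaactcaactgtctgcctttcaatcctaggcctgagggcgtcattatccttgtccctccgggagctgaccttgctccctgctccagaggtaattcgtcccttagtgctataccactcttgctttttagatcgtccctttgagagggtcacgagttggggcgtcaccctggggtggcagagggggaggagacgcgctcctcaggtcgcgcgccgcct
P2ry14: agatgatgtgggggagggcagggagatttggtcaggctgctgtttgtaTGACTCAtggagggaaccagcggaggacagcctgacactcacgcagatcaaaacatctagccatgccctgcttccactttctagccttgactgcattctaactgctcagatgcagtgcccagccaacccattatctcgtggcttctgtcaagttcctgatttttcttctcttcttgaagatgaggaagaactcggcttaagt
Adora2b: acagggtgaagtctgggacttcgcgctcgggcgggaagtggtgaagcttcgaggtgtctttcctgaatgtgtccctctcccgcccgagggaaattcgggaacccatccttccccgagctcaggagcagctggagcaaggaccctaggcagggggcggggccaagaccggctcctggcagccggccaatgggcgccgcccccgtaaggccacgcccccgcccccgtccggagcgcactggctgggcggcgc
Both strands were searched for 5 motifs, and windows of 7 of the 10 genes were at hand. TGANTCA was in the windows of P2rx7 and P2ry14 shown here, and 6.75% of all 32851 mouse windows of that length hold it. It was also in the window of Adora3 and in a second window of P2ry14. The STAT motifs TTCNNNGAA (7.02% of windows) and TTCNNNNGAA (5.85%), the cyclic AMP response motif TGACGTCA (1.55%) and the NF-kB consensus (7.25%) had no match in these 4 windows, nor in the other windows of the 7 genes.

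After TNF alone for 6 h, P2rx4, P2rx5, P2ry2, P2ry14 and Adora2a were higher than in untreated cells and P2ry6 and Entpd1 were lower (adjusted p below 0.05, edgeR quasi-likelihood test over all 15581 genes). These 5 of 10 raised and 2 of 10 lowered compare with 18.8% of all tested genes raised and 20.5% lowered. At 24 h of TNF, P2rx4, P2rx5, P2ry14, Adora2a and Adora2b were raised and Entpd1 lowered, where 20.9% of all genes were raised and 24.4% lowered. The median log2 fold change of the 10 genes was 0.76 at 6 h and 0.71 at 24 h, against -0.04 and -0.09 over all tested genes. Since the genes were chosen with earlier results of these data known, such shares and medians are a description only, here and below. Between 6 h and 24 h of TNF, Adora2b rose while P2rx4, P2ry2 and Entpd1 fell, against 12.7% and 10.9% of all genes.

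When TNF was added to IL, 5 of the 10 genes were called at 6 h and 4 at 24 h. At 6 h Adora2a, Adora2b and P2ry2 rose and P2ry6 and Entpd1 fell relative to IL alone, with 7.09% of all genes raised and 6.98% lowered. At 24 h P2rx5, P2ry14 and Adora2a rose and Entpd1 fell, with 6.03% and 5.08%. The median of the 10 genes was 0.20 at 6 h and -0.03 at 24 h, and that of all genes -0.01 and 0.00. Entpd1 fell and Adora2a rose in each of the 4 comparisons of TNF with its own background.

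Against untreated cells, IL at 6 h came with higher P2rx4, P2rx5, P2rx7, P2ry2, P2ry14 and Adora2b, and none of the 10 was lower, in a comparison that called 32.8% of all genes raised and 31.6% lowered. At 24 h the 6 raised genes were P2rx4, P2rx5, P2rx7, P2ry14, Adora2b and Entpd1, against 31.7% raised and 32.6% lowered. IL with TNF against TNF alone gave 2 genes raised (P2rx7 and Adora2b) and 3 lowered (P2rx4, P2ry14 and Entpd1) at 6 h, with 29.7% and 27.5% of all genes. At 24 h it gave 5 raised (P2rx4, P2rx5, P2rx7, P2ry14 and Entpd1) and 1 lowered (Adora3), with 29.2% and 27.1%. These 4 comparisons run across library sets.

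**Figure D1:**
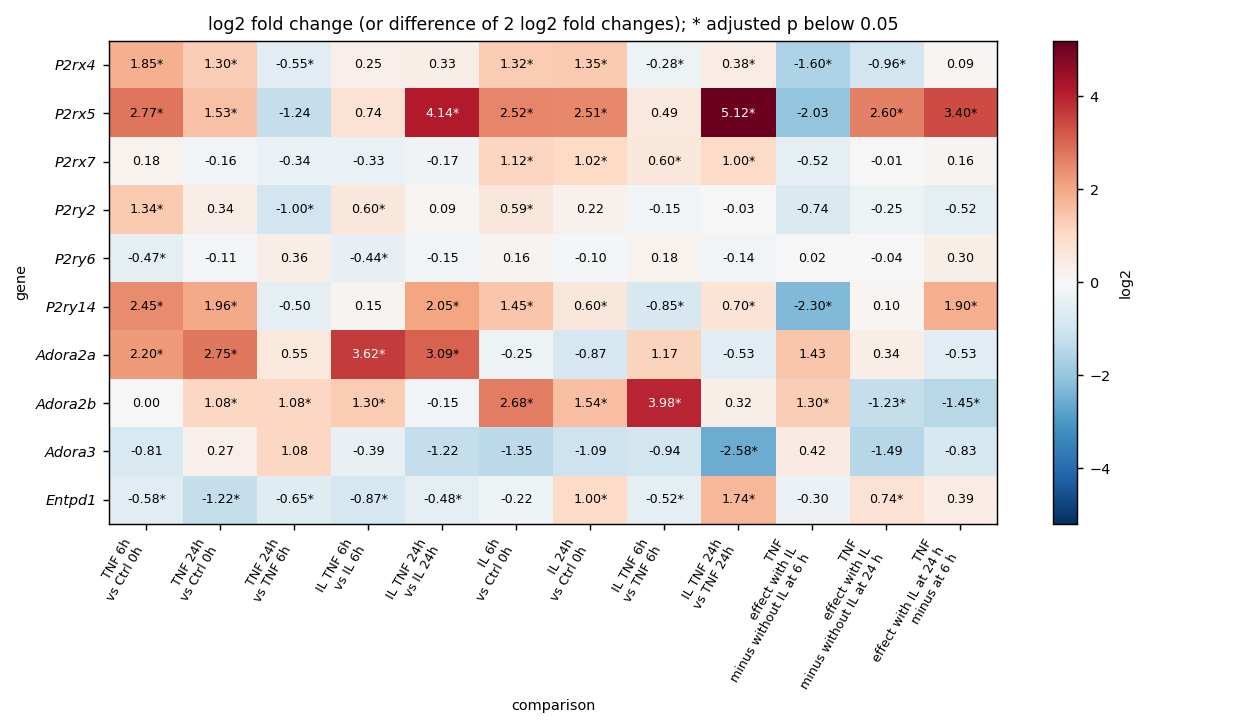
Log2 fold changes of the 10 genes (rows) in the 9 comparisons of groups and the 3 differences of TNF effects (columns); an asterisk marks an adjusted p below 0.05. Adora2a is raised and Entpd1 lowered in all 4 comparisons of TNF with its own background, and P2rx5 reaches 5.12 for IL with TNF against TNF alone at 24 h.

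The scaling of the libraries matters for small differences. Values here use TMM factors, and plain library totals moved the median log2 fold change of all genes by -0.21 for TNF at 6 h, -0.16 for TNF at 24 h, 0.16 for IL at 6 h, 0.27 for IL with TNF against TNF alone at 6 h and 0.19 for the same at 24 h. With plain totals the raised genes were 29.3% of those called, in place of 47.9%, for TNF at 6 h. For TNF at 24 h they were 33.5% in place of 46.2%, and for IL with TNF against IL at 6 h 38.3% in place of 50.4%. For IL with TNF against TNF alone they were 66.2% in place of 51.9% at 6 h and 62.3% in place of 51.8% at 24 h. For the difference of TNF effects with and without IL they were 61.7% in place of 50.4% at 6 h and 60.1% in place of 48.2% at 24 h, where the median moved by 0.11 and 0.10.

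The P2X channels come first. P2rx4 encodes an ATP-gated cation channel found largely on lysosomes of macrophages, and it was higher in every treated library than in every untreated one. P2rx4 stood at 164, 125 and 151 CPM in untreated cells, at 524, 506 and 555 after 6 h of TNF and at 347, 368 and 367 after 24 h. It was at 397, 325 and 379 CPM with IL at 6 h and 367, 365 and 387 with IL at 24 h, and at 471, 433 and 403 (6 h) and 536, 440 and 434 (24 h) with IL and TNF. TNF alone raised it by a log2 fold change of 1.85 ± 0.12 (SE, n = 3 against 3) at 6 h (adjusted p = 5.78e-10), and from 6 h to 24 h it fell by 0.55 ± 0.12 (adjusted p = 0.00156). In the presence of IL, which alone came with 1.32 ± 0.12 at 6 h and 1.35 ± 0.12 at 24 h, TNF added 0.25 ± 0.12 (adjusted p = 0.203) and 0.33 ± 0.12 (adjusted p = 0.0742). The TNF effect with IL was smaller than without it by a log2 difference of -1.60 ± 0.17 at 6 h (adjusted p = 1.94e-06) and -0.96 ± 0.16 at 24 h (adjusted p = 2.7e-04). Both differences stayed called in all 20 alternative fits, between -1.75 and -1.45 at 6 h and between -1.14 and -0.86 at 24 h. The call of lower P2rx4 with IL and TNF than with TNF alone at 6 h (-0.28) did not hold with plain totals (-0.01, adjusted p = 0.904) with no filter on low counts (adjusted p = 0.352), or when IL with TNF replicate 2 or 3 or any TNF replicate was left out (adjusted p 0.0673 to 0.145). The matching call at 24 h (0.38) was lost without IL with TNF replicate 1 (0.26, adjusted p = 0.0703) and with no filter (adjusted p = 0.108).

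P2rx7 encodes the P2X7 channel, which opens at high ATP and triggers the NLRP3 inflammasome. Every library with IL had a higher level than every library without it. P2rx7 was at 48.0, 30.2 and 42.6 CPM in untreated cells, 47.4, 44.9 and 45.0 with TNF at 6 h and 32.3, 34.1 and 41.7 with TNF at 24 h. The 12 libraries with IL lay at 69.2 CPM or above: 85.1, 89.5 and 88.4 with IL at 6 h, 83.3, 80.9 and 80.2 with IL at 24 h, 69.9, 69.2 and 69.7 with IL and TNF at 6 h, and 70.7, 74.4 and 71.6 with IL and TNF at 24 h. The log2 fold change of IL against untreated cells was 1.12 ± 0.13 at 6 h (adjusted p = 4e-07) and 1.02 ± 0.13 at 24 h (adjusted p = 1.42e-06), and these 12 libraries are also those of the other library sets. TNF passed the test in none of its 4 comparisons (log2 fold changes of 0.18, -0.16, -0.33 and -0.17, each ± 0.13), although the 3 libraries of IL with TNF lay below the 3 of IL alone at both times. The call for TNF on IL at 6 h depended on the fit: P2rx7 was called lower in 3 of 14 alternatives, with plain totals (-0.43, adjusted p = 0.0247), by DESeq2's Wald test (-0.33, adjusted p = 0.0384) and with 3 libraries left out (-0.32, adjusted p = 0.0246). Without untreated replicate 2, which had the lowest value of its group, TNF at 24 h was called lower (-0.33 ± 0.10, adjusted p = 0.0154), and the same was so with 3 libraries left out (-0.32, adjusted p = 0.0269). Between 6 h and 24 h of TNF the value was -0.34 ± 0.13 (adjusted p = 0.0581), and it was called lower in 6 of 14 alternatives, with adjusted p from 0.0199, among them the fit without TNF replicate 3 at 24 h (-0.46, adjusted p = 0.0246). The difference of TNF effects with and without IL at 6 h was -0.52 ± 0.18 (adjusted p = 0.0516), and it was called in 6 of 20 alternatives. Among them were the fits without untreated replicate 1 (-0.67, adjusted p = 0.0135), without IL replicate 2 (-0.57, adjusted p = 0.04) and without IL with TNF replicate 3 (-0.59, adjusted p = 0.0383).

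P2rx5 encodes a P2X subunit better known from lymphocytes and osteoclasts. It was near the limit of detection in untreated cells, where replicates 1 and 3 held 2 and 3 counts and replicate 2 held 47 (0.0534, 0.0979 and 1.59 CPM). TNF at 6 h gave 3.15, 3.43 and 4.78 CPM and TNF at 24 h 1.70, 1.82 and 1.29. IL gave 2.81, 2.99 and 3.79 CPM at 6 h and 2.80, 3.54 and 3.16 at 24 h, and IL with TNF gave 6.12, 5.50 and 4.34 at 6 h. IL with TNF at 24 h stood above all of these, at 40.6, 64.0 and 62.7 CPM (1444, 2739 and 2594 counts). No library of another group was above 6.12 CPM, so the 3 libraries do not overlap the rest. Against IL alone at 24 h the log2 fold change was 4.14 ± 0.48 (adjusted p = 5.45e-06, 17.6-fold), between 4.03 and 4.33 with any library of the pair of groups left out. The TNF effect in the presence of IL was larger at 24 h than at 6 h by 3.40 ± 0.64 (adjusted p = 0.00345), in a comparison that called 1.89% of all genes in that direction and 1.78% in the other. The libraries with IL at 6 h and at 24 h are of different sets, so time and set cannot be told apart in that difference.

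The size of P2rx5 changes against untreated cells rests on untreated replicate 2. With all 3 control libraries, TNF gave log2 fold changes of 2.77 ± 0.56 at 6 h (adjusted p = 5.72e-04) and 1.53 ± 0.59 at 24 h (adjusted p = 0.0398), and IL gave 2.52 at 6 h and 2.51 at 24 h. Without that replicate the values for P2rx5 were 5.62, 4.38, 5.37 and 5.36. Fits of only the compared groups did not keep the 4 calls (adjusted p 0.0798, 0.327, 0.0739 and 0.0919 in that order). Set against the 5 counts of untreated replicates 1 and 3 together, TNF at 6 h had 51.2 times as many counts per scaled library size (exact 95% interval 21.8 to 159, counting error only) and TNF at 24 h 21.8 times (9.15 to 68.2). The 24 h call was lost without untreated replicate 1 (adjusted p = 0.147) or 3 (0.141), and without TNF replicate 1 (0.0783), 2 (0.0965) or 3 (0.0528). The TNF effect with IL exceeded that without IL at 24 h by 2.60 ± 0.76 (adjusted p = 0.0179), but by -0.24 ± 0.53 (adjusted p = 0.813) without untreated replicate 2, so that difference is not established. At 6 h the same difference was -2.03 ± 0.72 (adjusted p = 0.0563) and -4.88 ± 0.50 (adjusted p = 2.15e-06) without it.

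Zbtb46, 1 of the 5 dendritic-cell markers listed, had its highest group mean with IL and TNF at 24 h, as did P2rx5. The 5 dendritic-cell markers listed summed to 5.12, 15.7 and 15.8 CPM in the 3 libraries of IL with TNF at 24 h, in which 3 of the 5 had a count. Almost all of it was Zbtb46, a transcription factor of dendritic cells, at 4.87, 15.4 and 15.6 CPM in replicates 1, 2 and 3, so replicate 1 was the lowest for it as for P2rx5. Flt3, which marks dendritic cells and their precursors, was at 0, 0.0467 and 0 CPM there. Xcr1 had a group mean of 0.203 CPM there, against 0.794 with TNF alone at 24 h, and Cd209a and Siglech had no count in these libraries. In untreated replicate 2 Zbtb46 was at 6.39 and Flt3 at 3.25 CPM, and the list summed to 10.4, against 0.457 and 0.641 in the other untreated libraries. The B-cell markers summed to 7.98 CPM in the highest untreated library against 0.685 and 1.07 in the others, and the fibroblast markers to 3.96 against 0.428 and 0.750. In the other groups the dendritic-cell list summed to 0.662 to 5.75 CPM. The fibroblast markers were higher still in the highest library of IL at 6 h (8.75 CPM) and of IL with TNF at 6 h (7.34). The B-cell markers reached 4.33 CPM with IL and TNF at 6 h. The part of these markers in the P2rx5 result was not tested.

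**Figure D2:**
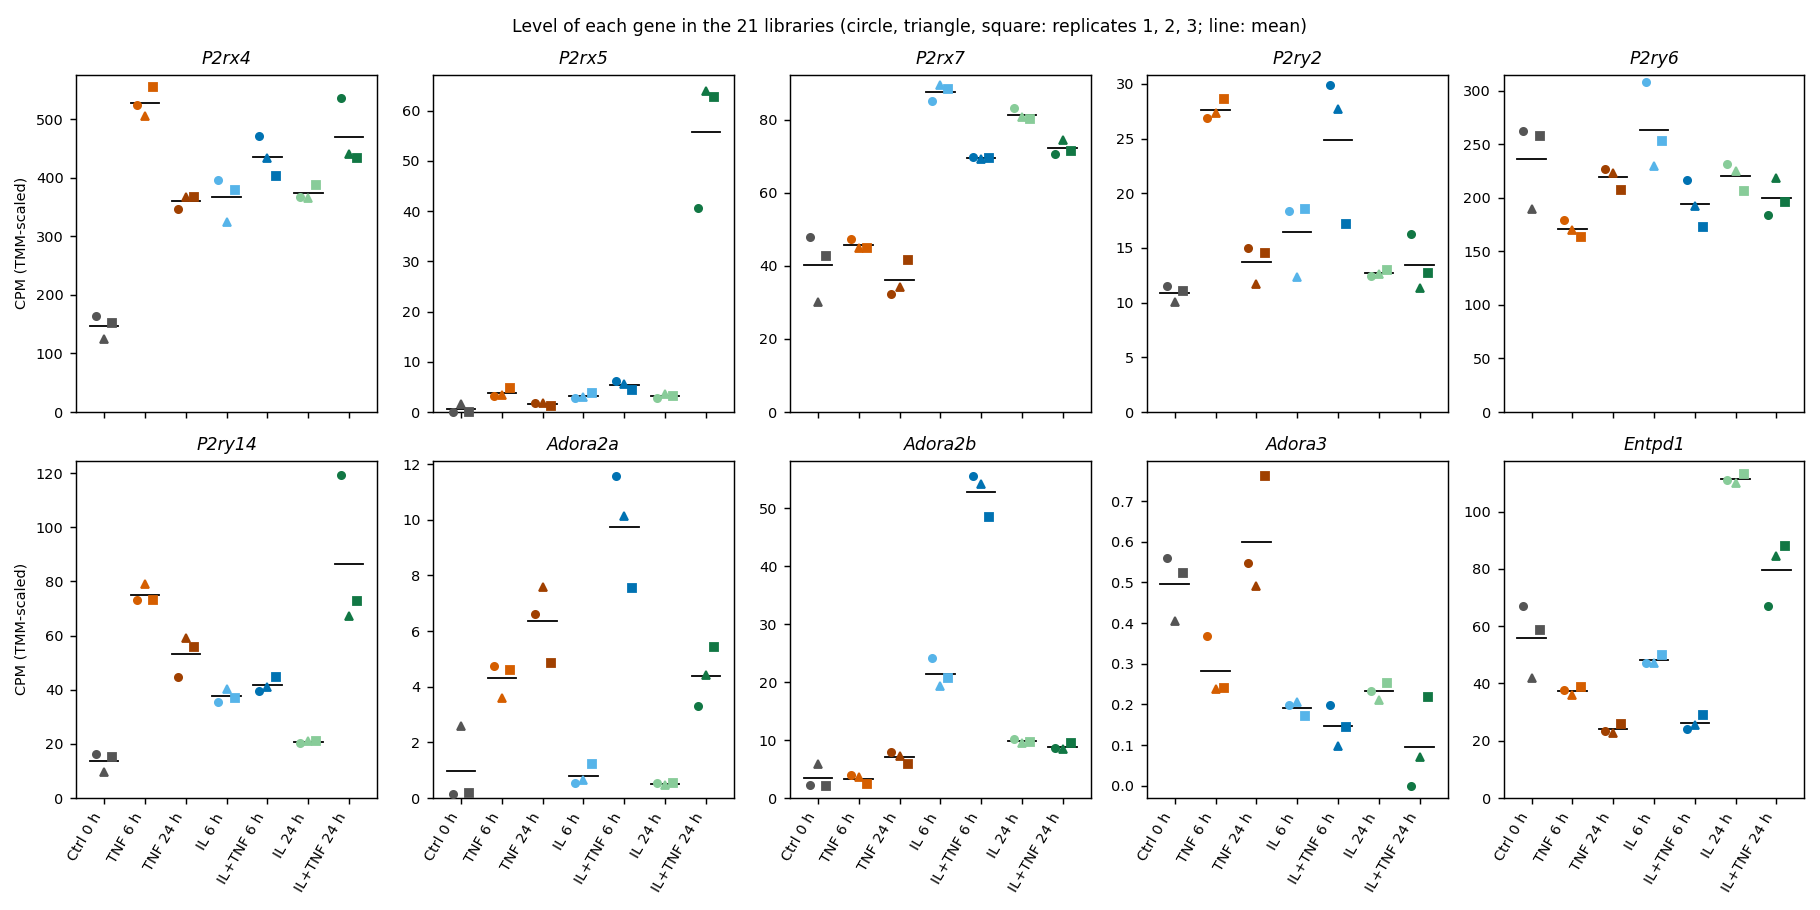
CPM (scaled with TMM factors, linear axis) of each gene in the 21 libraries, in a panel per gene, with a symbol per library, a shape per replicate and a line at the mean of 3. P2rx5 lies above 40 CPM in the 3 libraries of IL with TNF at 24 h and at 6.12 or below in the rest, and P2rx7 lies at 69.2 or above in the 12 libraries with IL and at 48.0 or below in the 9 without.

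Of the P2Y receptors, P2ry14, which binds UDP-glucose and UDP, rose with TNF alone at both times. P2ry14 was at 16.3, 9.47 and 15.3 CPM in untreated cells, at 73.2, 79.0 and 73.1 after 6 h of TNF and at 44.7, 59.2 and 55.7 after 24 h. With IL it was at 35.4, 40.2 and 36.9 at 6 h and 20.4, 21.2 and 20.9 at 24 h, and with IL and TNF at 39.5, 40.8 and 44.6 at 6 h and 119, 67.4 and 72.8 at 24 h. Every treated library was above every untreated one. TNF alone gave log2 fold changes of 2.45 ± 0.20 at 6 h (adjusted p = 1.29e-08) and 1.96 ± 0.20 at 24 h (adjusted p = 1.41e-07). With IL present, TNF gave 0.15 ± 0.19 at 6 h (adjusted p = 0.76) and 2.05 ± 0.20 at 24 h (adjusted p = 3.95e-07). The TNF effect thus was smaller with IL than without it at 6 h, by a difference of -2.30 ± 0.27 (adjusted p = 8.97e-06). At 24 h that difference was 0.10 ± 0.27 (adjusted p = 0.831), with a span of 20 alternative fits from -0.27 to 0.30. Within IL, the TNF effect was larger at 24 h than at 6 h by 1.90 ± 0.27 (adjusted p = 2.39e-04), in a comparison across library sets. The 24 h effect in IL was 1.75 without IL with TNF replicate 1, the library at 119 CPM, and it stayed called. The call of higher P2ry14 with IL and TNF than with TNF alone at 24 h (0.70 ± 0.19) did not: without that library it was 0.38 (adjusted p = 0.0578). The IL call at 24 h (0.60 ± 0.19, adjusted p = 0.0105) was 0.40 (adjusted p = 0.0673) without untreated replicate 2, the lowest of its group.

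P2ry2, a receptor for ATP and UTP, had an early response. It was at 11.5, 10.1 and 11.03 CPM in untreated cells, 26.8, 27.3 and 28.6 after 6 h of TNF and 15.0, 11.7 and 14.6 after 24 h. The groups at 0 h and 6 h do not overlap. The log2 fold change was 1.34 ± 0.19 at 6 h (adjusted p = 1.37e-05), and P2ry2 fell by 1.00 ± 0.19 on the log2 scale from 6 h to 24 h of TNF (adjusted p = 5.65e-04), to a level not told apart from untreated cells (0.34 ± 0.19, adjusted p = 0.154). IL gave 18.4, 12.3 and 18.5 CPM at 6 h and IL with TNF 29.9, 27.7 and 17.2, values that overlap, and the call between them (0.60 ± 0.19, adjusted p = 0.0351) was lost without IL replicate 2 (adjusted p = 0.154) or IL with TNF replicate 1 (0.211) or 2 (0.162), with plain totals (0.0547) and with the 2 groups fitted alone (0.17). At 24 h P2ry2 was at 12.4, 12.6 and 12.98 CPM with IL and at 16.3, 11.4 and 12.7 with IL and TNF. The difference of TNF effects at 6 h (-0.74 ± 0.27, adjusted p = 0.0582) was called in 5 of 20 alternatives. Among them were the fits without IL replicate 2 (-0.99, adjusted p = 0.0104) and without IL with TNF replicate 1 (-0.90, adjusted p = 0.0355).

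P2ry6, a receptor for UDP linked to phagocytosis, varied least among the 10 genes, with group means from 171 to 264 CPM. P2ry6 was at 262, 189 and 258 CPM in untreated cells and at 179, 170 and 164 after 6 h of TNF, which gave a log2 fold change of -0.47 ± 0.13 (adjusted p = 0.00909). That call was lost without untreated replicate 1 (-0.38, adjusted p = 0.0541) and with no filter on low counts (adjusted p = 0.0512). After 24 h of TNF it was at 226, 224 and 207 CPM and not told apart from untreated cells (-0.11 ± 0.13, adjusted p = 0.53). With IL at 6 h it was at 308, 230 and 253 CPM, and with IL and TNF at 216, 193 and 173 (-0.44 ± 0.13, adjusted p = 0.029), a call that was lost without IL replicate 1 (adjusted p = 0.2) or 3 (0.0641) or IL with TNF replicate 2 (0.0996) or 3 (0.14), with no filter (0.126) and with the 2 groups fitted alone (0.0959). At 24 h it was at 232, 225 and 206 with IL and 184, 219 and 196 with IL and TNF, which overlap. The opposite moves of P2ry2 and P2ry6 at 6 h brought the ratio of P2ry6 to P2ry2 within a library from a log2 of 4.42 ± 0.17 (SD, n = 3) in untreated cells to 2.63 ± 0.11 after TNF, and to 2.99 ± 0.29 with IL and TNF against 4.02 ± 0.23 with IL. At 24 h it was 4.0 ± 0.22 with TNF, 4.12 ± 0.12 with IL and 3.90 ± 0.39 with both.

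The receptors of Adora2a and Adora2b both couple to the G protein that raises cyclic AMP. Adora2a was at 0.160, 2.57 and 0.163 CPM in untreated cells (11 counts in replicates 1 and 3 together), at 0.530, 0.663 and 1.21 with IL at 6 h and at 0.526, 0.469 and 0.543 with IL at 24 h. The 12 libraries with TNF were all higher. They had 4.76, 3.61 and 4.61 CPM with TNF at 6 h, 6.60, 7.60 and 4.83 with TNF at 24 h, 11.6, 10.1 and 7.55 with IL and TNF at 6 h and 3.32, 4.42 and 5.42 with IL and TNF at 24 h. TNF raised Adora2a over IL by a log2 fold change of 3.62 ± 0.62 at 6 h (adjusted p = 3.34e-04) and 3.09 ± 0.63 at 24 h (adjusted p = 0.00205), and over untreated cells by 2.20 ± 0.61 (adjusted p = 0.00776) and 2.75 ± 0.62 (adjusted p = 0.00125). Without untreated replicate 2 the values over untreated cells were 4.71 ± 0.42 and 5.26 ± 0.42. Fits of only the compared groups did not keep these calls over untreated cells (adjusted p = 0.122 and 0.0671). Against the 11 counts of untreated replicates 1 and 3, the ratio of scaled counts was 26.6 (exact 95% interval 14.7 to 53.7) at 6 h and 39.2 (21.7 to 78.9) at 24 h.

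Whether IL changed Adora2a depends on that same library. With all 3 untreated libraries IL gave -0.25 ± 0.64 at 6 h (adjusted p = 0.745) and -0.87 ± 0.65 at 24 h (adjusted p = 0.252). Without replicate 2, Adora2a was higher with IL, by 2.26 ± 0.46 at 6 h (adjusted p = 3.14e-04) and 1.65 ± 0.47 at 24 h (adjusted p = 0.00557). The difference of TNF effects with and without IL turned sign too, from 1.43 ± 0.85 (adjusted p = 0.263) to -1.09 ± 0.53 (adjusted p = 0.19) at 6 h and from 0.34 ± 0.85 (adjusted p = 0.809) to -2.18 ± 0.53 (adjusted p = 0.00634) at 24 h. The direction in which IL moved Adora2a, and whether IL altered its response to TNF, is therefore not established by these libraries.

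Adora2b was highest with IL and TNF at 6 h. It was at 2.16, 5.88 and 2.06 CPM in untreated cells, 24.2, 19.3 and 20.7 with IL at 6 h and 10.1, 9.56 and 9.59 with IL at 24 h. IL with TNF gave 55.6, 54.2 and 48.6 CPM at 6 h, the highest of the 7 groups, and 8.56, 8.39 and 9.46 at 24 h. TNF alone gave 3.89, 3.67 and 2.48 at 6 h and 7.99, 7.28 and 5.93 at 24 h. The IL libraries at 6 h do not overlap the untreated ones (2.68 ± 0.28, adjusted p = 1.19e-07, 6.40-fold), and TNF on top of IL raised it further (1.30 ± 0.25, adjusted p = 0.00111, 2.46-fold). At 24 h IL gave 1.54 ± 0.27 (adjusted p = 6.84e-05) and TNF on top of IL gave -0.15 ± 0.26 (adjusted p = 0.867). TNF alone gave 0.00 ± 0.28 at 6 h and 1.08 ± 0.28 at 24 h (adjusted p = 0.00356, but 0.102 with the 2 groups fitted alone).

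For Adora2b, untreated replicate 2 was the highest of its group, and without it TNF alone was called at 6 h as well (0.66 ± 0.19, adjusted p = 0.0103) and gave 1.74 ± 0.19 at 24 h. The TNF effect with IL exceeded that without it at 6 h by 1.30 ± 0.38 (adjusted p = 0.0215) and fell short of it at 24 h by a difference of -1.23 ± 0.38 (adjusted p = 0.0233). The 6 h call was lost without untreated replicate 2 (0.64, adjusted p = 0.074), IL replicate 2 (adjusted p = 0.0577) or 3 (0.0518) or TNF replicate 3 (0.0659), with the 4 groups fitted alone (0.0693) and with 3 libraries left out (0.47, adjusted p = 0.164). The 24 h difference was -1.89 without untreated replicate 2, and its call was lost without untreated replicate 1 (adjusted p = 0.0575) or 3 (0.054) or IL with TNF replicate 2 (0.051), and with the 4 groups fitted alone (0.0661). Within IL, the TNF effect was smaller at 24 h than at 6 h (-1.45 ± 0.36, adjusted p = 0.0273), in a comparison across library sets. Leaving out single libraries of these 4 groups gave -1.55 to -1.39, and in 9 of 12 cases an adjusted p above 0.05, up to 0.0779: without IL replicate 2 or 3 or IL with TNF replicate 1 or 2 at 6 h, and without any IL replicate or IL with TNF replicate 2 or 3 at 24 h.

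**Figure D3:**
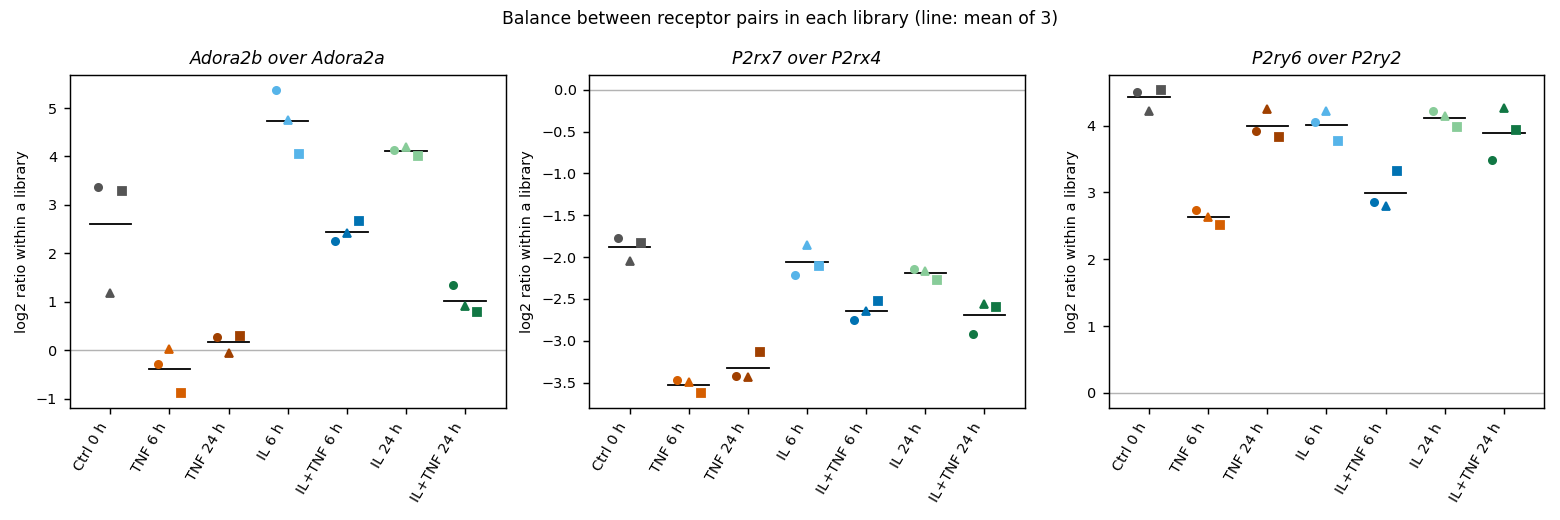
Log2 ratio of CPM between pairs of receptor genes in each of the 21 libraries, with a symbol per library and a line at the mean of 3. The ratio of Adora2b to Adora2a lies at 4.01 or above in the 6 libraries of IL alone and between -0.88 and 0.29 in the 6 libraries of TNF alone.

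Within a library, the ratio of Adora2b to Adora2a was lower in the libraries with TNF than in those of IL alone. The log2 ratio of Adora2b to Adora2a was 3.38, 1.18 and 3.285 in untreated cells, 5.38, 4.76 and 4.04 with IL at 6 h and 4.14, 4.20 and 4.01 with IL at 24 h. It was -0.29, 0.02 and -0.88 with TNF at 6 h and 0.28, -0.06 and 0.29 with TNF at 24 h, the lowest values of the 7 groups. IL with TNF lay between, at 2.26, 2.41 and 2.68 at 6 h and 1.35, 0.92 and 0.80 at 24 h, and did not overlap IL alone at either time. For the neighbours P2rx7 and P2rx4 the ratio of P2rx7 to P2rx4 was a log2 of -1.88 ± 0.15 (SD, n = 3) in untreated cells, -3.53 ± 0.08 with TNF at 6 h, -3.33 ± 0.17 with TNF at 24 h, -2.06 ± 0.18 with IL at 6 h and -2.19 ± 0.07 with IL at 24 h. IL with TNF gave -2.64 ± 0.11 and -2.69 ± 0.20. These ratios are differences of log2 CPM with a prior count of 2 and are given without a test.

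Adora3, whose A3 receptor acts through an inhibitory G protein, was at the edge of detection with 217 counts in all 21 libraries. It was at 0.561, 0.406 and 0.522 CPM in untreated cells, 0.547, 0.490 and 0.761 with TNF at 24 h and 0.369, 0.239 and 0.241 with TNF at 6 h. The 12 libraries with IL were at or below 0.252 CPM. IL with TNF at 24 h had 0, 3 and 9 counts, or 0, 0.0701 and 0.218 CPM, where a count of 0 allows up to 0.0844 CPM (3 counts). IL with TNF against TNF alone at 24 h passed the test (-2.58 ± 0.67, adjusted p = 0.00302) and kept its call without each library in turn (-3.91 without IL with TNF replicate 3), but not with no filter on low counts (adjusted p = 0.0808). The gene passed that filter through its counts in the untreated and TNF-alone libraries, the higher side of this comparison among them. The comparison also runs across library sets, so treatment and set cannot be told apart in it. The other 8 comparisons of groups did not pass, with IL at 6 h against untreated cells at -1.35 ± 0.63 (adjusted p = 0.0674). Its exons overlap those of the second row named above, so reads can be split between the rows.

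Entpd1 encodes CD39, the ectonucleotidase that turns ATP and ADP into AMP. It was at 67.2, 42.0 and 58.6 CPM in untreated cells, 37.9, 35.9 and 38.8 after 6 h of TNF and 23.5, 22.6 and 25.7 after 24 h. The 3 groups do not overlap and the level fell at each step, with log2 fold changes of -0.58 ± 0.14 at 6 h (adjusted p = 0.00246), -1.22 ± 0.14 at 24 h (adjusted p = 6.84e-07) and -0.65 ± 0.14 between the times (adjusted p = 0.00171). IL at 6 h had 47.1, 47.0 and 50.05 CPM and IL with TNF 24.1, 25.6 and 28.9 (-0.87 ± 0.14, adjusted p = 1.36e-04). IL at 24 h had the highest level of the 7 groups, at 111, 110 and 113 CPM, which is 1.00 ± 0.14 above untreated cells (adjusted p = 4.17e-06). IL with TNF at 24 h had 67.1, 84.4 and 87.9 CPM, below IL alone (-0.48 ± 0.14, adjusted p = 0.0239).

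For Entpd1, the call at 24 h within IL was lost without IL with TNF replicate 1 (-0.37, adjusted p = 0.147) and without IL replicate 1 (adjusted p = 0.0779), 2 (0.0698) or 3 (0.0852), while the libraries of the groups do not overlap. The TNF effect was less negative with IL than without it at 24 h, by 0.74 ± 0.19 (adjusted p = 0.00903), a call kept in all 20 alternative fits (0.58 to 1.01). At 6 h that difference was -0.30 ± 0.19 (adjusted p = 0.313). Without untreated replicate 2, Entpd1 was called lower with IL at 6 h too (-0.39 ± 0.12, adjusted p = 0.00712, against -0.22 with it), and the call of lower Entpd1 with IL and TNF than with TNF alone at 6 h (-0.52) was not kept with plain totals (-0.25, adjusted p = 0.142). At 24 h the same comparison gave 1.74 ± 0.14 (adjusted p = 5.87e-09).

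**Figure D4:**
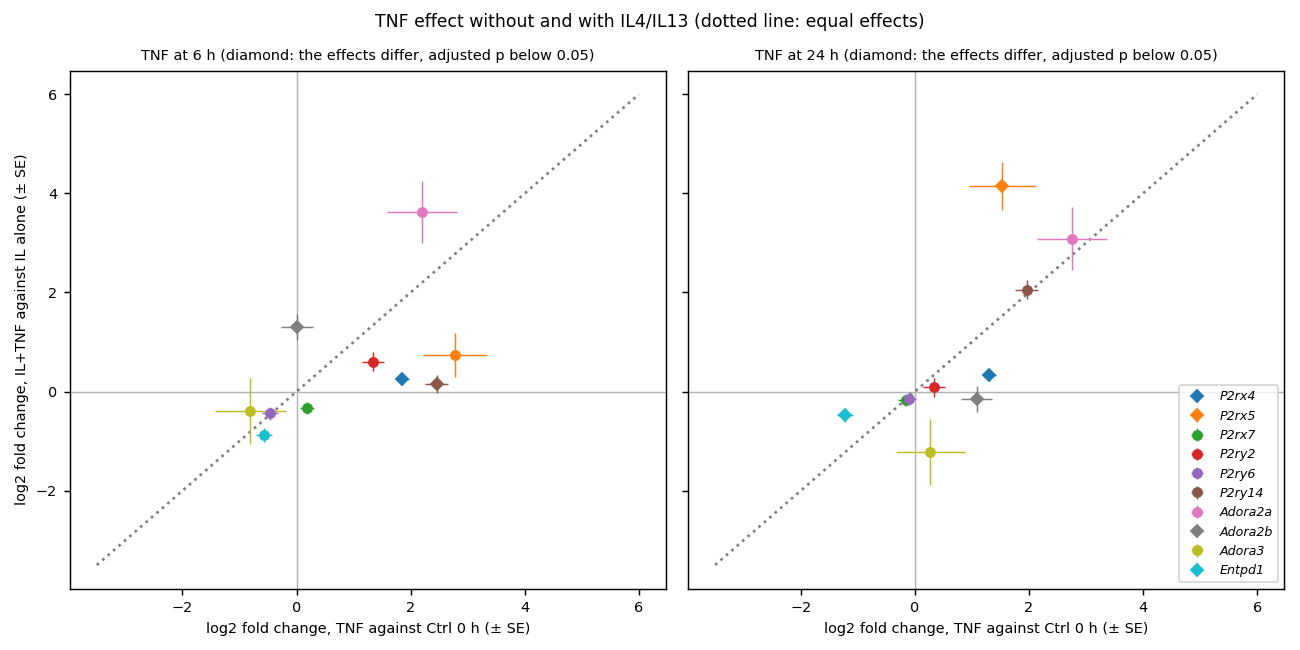
Log2 fold change of TNF without IL (x axis, against untreated cells at 0 h) and with IL (y axis, against IL alone at the same time) for the 10 genes at 6 h (left) and 24 h (right), with SE bars; diamonds mark effects that differ at an adjusted p below 0.05 and the dotted line marks equal effects. P2rx4 and P2ry14 lie below the line at 6 h and P2rx5 above it at 24 h. The P2rx5 difference at 24 h was -0.24 without untreated replicate 2 and is not established.

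The 3 differences of TNF effects called 3, 4 and 3 of these genes. With IL against without it, 1 gene was higher (Adora2b) and 2 lower (P2rx4 and P2ry14) at 6 h, against 9.27% and 9.13% of all genes. At 24 h 2 were higher (P2rx5 and Entpd1) and 2 lower (P2rx4 and Adora2b), against 11.6% and 12.5%. Without untreated replicate 2 the P2rx5 difference at 24 h was -0.24 (adjusted p = 0.813). The effect without IL is measured against cells at 0 h and that with IL against cells treated for the same time, and the 2 effects come from different library sets, so IL, time and set cannot be told apart in them. Within IL, 2 effects were larger (P2rx5 and P2ry14) and 1 smaller (Adora2b) at 24 h than at 6 h, against 1.89% and 1.78% of all genes. The effects at 6 h and at 24 h also come from different library sets, so time and set cannot be told apart in this comparison.

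**Figure D5:**
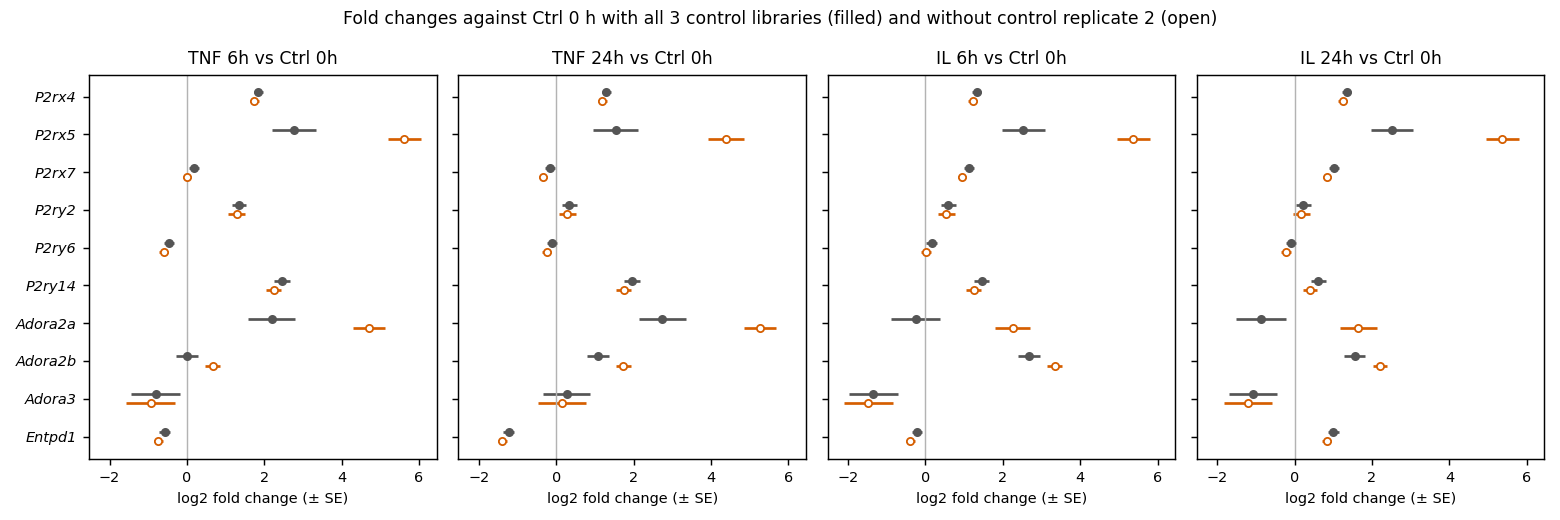
Log2 fold change (± SE) of the 10 genes for TNF and IL at 6 h and 24 h against untreated cells, with all 3 untreated libraries (filled) and without untreated replicate 2 (open). P2rx5 and Adora2a move by more than 2 log2 units in all 4 comparisons and the other 8 genes by less than 1.

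Levels can be set side by side between genes only per length, here as CPM per kilobase of exon (GENCODE vM1, an older build than the counts). In untreated cells P2ry6 led with 122, followed by P2rx4 with 44.4, Entpd1 with 10.0, P2ry14 with 7.61 and P2rx7 with 7.29. P2ry2 had 3.62, Adora2b 1.83, Adora2a 0.381, P2rx5 0.242 and Adora3 0.197. After 6 h of TNF P2rx4 led with 160 and P2ry14 stood at 41.8, against 88.3 for P2ry6. With IL and TNF at 24 h P2rx5 reached 23.3, above P2rx7 at 13.1, and with IL and TNF at 6 h Adora2b reached 28.6, against 3.85 for Adora2a.

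The rest of the purine machinery was followed in 4 lists. Of 10 other nucleotide and adenosine receptors 5 could be tested, and P2ry1 and P2ry13, receptors for ADP, moved in opposite directions. P2ry1 was at 8.00 ± 0.80 CPM (mean ± SD, n = 3) in untreated cells, 1.51 ± 0.13 after TNF at 6 h and 2.61 ± 0.16 at 24 h, and at 43.0 ± 2.2 with IL at 24 h against 21.9 ± 3.0 with IL and TNF. It fell in all 4 comparisons of TNF with its own background, by log2 fold changes of -2.40, -1.62, -0.91 and -0.97. P2ry13 rose in all 4, by 1.05, 2.03, 1.22 and 2.03, from 3.96 ± 1.4 CPM in untreated cells to 16.3 ± 1.8 with TNF at 24 h. Within IL at 24 h P2ry13 was low, at 0.67 ± 0.17 CPM with IL alone and 2.72 ± 0.71 with IL and TNF. In these 4 comparisons the list had 1 raised and 2 lowered of 5, 1 and 2, 1 and 2, and 1 and 1. Of all tested genes, 18.8% were raised and 20.5% lowered, 20.9% and 24.4%, 7.09% and 6.98%, and 6.03% and 5.08%, in the same order.

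Of 14 other ectonucleotidases and phosphatases 8 could be tested. At 6 h of TNF 3 were raised and 2 lowered, at 24 h 1 and 3, and with TNF on top of IL none and 1 at 6 h and 1 and 1 at 24 h. The shares of all genes in these comparisons were 18.8% raised and 20.5% lowered, 20.9% and 24.4%, 7.09% and 6.98%, and 6.03% and 5.08%. Enpp1, which makes AMP and pyrophosphate from ATP, was lowered in all 4 comparisons (-1.54, -1.28, -1.28 and -1.73). Acp3, an AMP-degrading phosphatase, rose with TNF on top of IL at 24 h (1.98 ± 0.26, adjusted p = 2.33e-05), from 3.27 ± 0.32 to 12.96 ± 2.7 CPM. Nt5e, the CD73 gene that would carry AMP on to adenosine, had a group mean of at most 0.282 CPM, that of untreated cells, where replicate 2 held 25 counts and replicates 1 and 3 held 0. It is 1 of the 3 called lower at 24 h of TNF, a call that thus rests on that library.

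Of 11 genes of nucleotide release, nucleoside uptake and adenosine removal 10 could be tested. TNF alone raised 4 and lowered 4 at 6 h, and raised 4 and lowered 6 at 24 h. It raised 18.8% and lowered 20.5% of all genes at 6 h, and 20.9% and 24.4% at 24 h. The purine nucleoside phosphorylase Pnp rose from 200 ± 26 CPM in untreated cells to 593 ± 27 at 6 h and 1225 ± 187 at 24 h of TNF, and its copy Pnp2 with it (2.10 and 3.43 on the log2 scale), though reads of these near-identical genes can be split between them. The concentrative nucleoside carrier Slc28a2 rose by 2.71 ± 0.19 at 6 h and 2.60 ± 0.19 at 24 h, while the equilibrative carrier Slc29a1 (-0.88 and -1.14), adenosine deaminase Ada (-1.33 and -1.21), adenosine kinase Adk (-0.82 and -0.86) and the ATP release channel Panx1 (-0.94 and -0.52) fell. On top of IL, TNF raised 1 (Slc28a2) and lowered 1 (Slc17a9) at 6 h, and called none of the 10 at 24 h by edgeR. Of all genes, 7.09% were raised and 6.98% lowered at 6 h, and 6.03% and 5.08% at 24 h.

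The 7 genes downstream of P2X7 in the inflammasome could all be tested. TNF alone raised 5 (Nlrp3, Casp1, Gsdmd, Il18 and Il1b) and lowered 1 (Pycard, the adaptor) at both times, and P2rx7 itself passed neither test. Of all genes, TNF alone raised 18.8% and lowered 20.5% at 6 h, and 20.9% and 24.4% at 24 h. Nlrp3 rose by 1.17 ± 0.21 at 6 h and 2.75 ± 0.22 at 24 h. On top of IL, TNF raised 4 at 6 h (Nlrp3, Casp1, Gsdmd and Il1b) and 1 at 24 h (Gsdmd, the pore-forming effector), against 7.09% and 6.03% of all genes. The median log2 fold change of the 7 was 1.17 and 1.81 for TNF alone, and 0.96 and 0.12 on top of IL, where the median of all genes lay between -0.09 and 0.00.

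The genes whose log2 CPM followed each of the 10 most closely over the 21 libraries are given as a description only, since the libraries share groups and sets. P2rx4 was nearest to Rnf149 (Pearson r = 0.95), P2rx5 to the chemokine receptor gene Ccr7 (0.927), P2rx7 to Cdc42se2 (0.985), P2ry2 to Atf5 (0.938) and P2ry6 to Rasal3 (0.799). P2ry14 was nearest to Ass1 (0.939), Adora2a to the actin-bundling gene Fscn1 (0.930), Adora2b to Phldb1 (0.945), Entpd1 to Rassf3 (0.975) and Adora3 to Dusp6 (0.913). The next were F10 (0.941) and C3 (0.937) for P2rx4, Slc7a11 (0.902) and Kynu (0.895) for P2rx5, Dusp3 (0.979) and Tpp1 (0.979) for P2rx7, H2-Q8 (0.875) and Slc11a2 (0.859) for P2ry2, and Tubgcp2 (0.736) and Ap1b1 (0.734) for P2ry6. They were C3 (0.925) and Ccl8 (0.921) for P2ry14, Cacnb1 (0.924) and Vcam1 (0.914) for Adora2a, Il1rap (0.944) and Mmp13 (0.942) for Adora2b, Lbh (0.975) and Pdcd4 (0.968) for Entpd1, and Arap3 (0.901) and Hhex (0.859) for Adora3. Complement C3 was among the 3 nearest genes of both P2rx4 and P2ry14.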

How the data were processed

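RNA-seq was measured in 21 macrophage libraries, 3 in each of 7 groups. Per the submitters' processing notes, the tools were TopHat2 2.0.12, featureCounts of Subread 1.6.3 and edgeR 3.28.1 with the GRCm38 build. The authors deposited raw counts per gene, one column per library. As to the annotation release, the strand setting and the counting of pairs, they are not given in the sources here. Over the table the value 2 (30373 times) is more frequent than the value 1 (17808 times), so counting intervals, which cover counting error only, may be too narrow even for that. Between libraries of a group the chi-square per degree of freedom over genes was 7.1 to 140.5. Libraries thus differ by more than counting error, and the intervals are too narrow for the spread between libraries.

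From the counts, 15581 of 47069 identifiers passed edgeR's filterByExpr. All 21 libraries were fitted together with the quasi-likelihood test of edgeR 4.0.16 in R 4.3.3 (TMM factors, 1 term per group), with Benjamini-Hochberg adjustment over all 15581 genes and 0.05 as the threshold for a call. Standard errors are the log2 fold change over the root of F. CPM use TMM-scaled totals, and log2 CPM a prior count of 2. The script was tested on simulated data. Symbols came from GENCODE vM1 and RefSeq, and sequences and coordinates from RefSeq on GRCm38.p6. Depth was 28.1 to 48.7 M counts a library, and the biological coefficient of variation 22.8%.

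The text names the 10 genes in every comparison, the 3 genes of most like pattern for each, and pathway genes called in comparisons within a library set. The members and lists were chosen with earlier results of these data known. Alternatives were DESeq2 1.42.0 size factors and Wald test, no filter, a strict filter (1 CPM in 3 libraries), a replicate block, a fit of only the groups compared, 3 libraries left out together (untreated replicate 2, TNF replicate 3 at 6 h and IL with TNF replicate 1 at 24 h), and each library left out. Plain library totals in the fit were added after seeing the data. Replicate numbers were not taken as pairs, since no comparison had all 3 correlations of same-numbered libraries above 0.1. For TNF at 24 h against untreated cells, each library did correlate best with its own number, at 0.006 to 0.018. With 3 libraries a group this check cannot exclude pairing, and the block was kept as an alternative only.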

Additional observations from a re-analysis of the deposited data

Results flagged for a closer look

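In 10 cases the effect of TNF on a gene differed between conditions by a test of the difference itself (edgeR's quasi-likelihood test, adjusted over all genes). With IL against without it at 6 h, the differences in log2 fold change were -1.60 for P2rx4 (adjusted p = 1.94e-06), -2.30 for P2ry14 (adjusted p = 8.97e-06) and 1.30 for Adora2b (adjusted p = 0.0215). At 24 h they were -0.96 for P2rx4 (adjusted p = 2.7e-04), 2.60 for P2rx5 (adjusted p = 0.0179), -1.23 for Adora2b (adjusted p = 0.0233) and 0.74 for Entpd1 (adjusted p = 0.00903). Within IL, 24 h against 6 h, they were 3.40 for P2rx5 (adjusted p = 0.00345), 1.90 for P2ry14 (adjusted p = 2.39e-04) and -1.45 for Adora2b (adjusted p = 0.0273). All these differences compare effects from different library sets, so set cannot be told apart from IL or time in them. The P2rx5 difference at 24 h turned to -0.24 without untreated replicate 2, and the 3 Adora2b calls were lost when single libraries were left out.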

How the results depend on the processing

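Single-library control effects limit the low-level genes most: P2rx5 and Adora2a rest on 5 and 11 counts in untreated replicates 1 and 3, and untreated replicate 2 decides their size. The time in culture and the library set cannot be told apart from treatment in comparisons with untreated cells and across sets. In the difference of TNF effects within IL between 24 h and 6 h, time and set cannot be told apart.

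Of the recomputed values, 1910 stayed the same. For tests this means the same direction and side of the threshold. For levels, ratios and counts of genes called it means a change within a set limit. Without a turn of sign, 66 tests lost and 62 gained a call. Another 52 turned sign, with or without a change of call, and 37 levels, ratios or counts moved. The cause was not tested. With plain library totals the sign turned for P2rx7 (-0.0129) and Adora2b (-0.232) with TNF at 6 h, for P2ry2 with IL and TNF against TNF at 6 h (0.108) and 24 h (0.147), for P2ry6 in the latter (0.0574), and for P2rx7 (0.0730) and P2ry6 (0.0623) in the 24 h difference of TNF effects with and without IL. Adora2b with TNF at 6 h was -0.0157 with DESeq2 size factors, -0.0220 by DESeq2's Wald test, -0.0655 with the strict filter and -0.0147 with the groups alone. With no filter P2ry6 was -0.00063 in the 6 h difference, and with the strict filter P2rx7 was 0.0296 and P2ry6 0.0077 in the 24 h difference. With 3 libraries left out, Adora2a was 2.26 with IL at 6 h, 1.65 with IL at 24 h, -1.03 in the 6 h and -2.03 in the 24 h difference. There P2rx5 was -0.0770, P2rx7 0.160, P2ry6 0.143 and P2ry14 -0.0128 in the 24 h difference, P2ry2 -0.0700 for TNF on IL at 24 h, and P2rx4 -0.0290 in the difference between 24 h and 6 h within IL.

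Leaving out 1 library gave ranges across 0 for Adora2b with TNF at 6 h (-0.24 to 0.66), P2ry2 with TNF on IL at 24 h (-0.0685 to 0.19), Adora2a with IL at 6 h (-0.77 to 2.26) and 24 h (-1.38 to 1.65), and P2ry2 with IL and TNF against TNF at 6 h (-0.30 to 0.0361) and 24 h (-0.21 to 0.0790). In the 6 h difference of TNF effects they were P2ry6 (-0.14 to 0.16) and Adora2a (-1.09 to 1.94). In the 24 h difference they were P2rx5 (-0.24 to 3.19), P2rx7 (-0.17 to 0.16), P2ry6 (-0.13 to 0.10), P2ry14 (-0.27 to 0.30) and Adora2a (-2.18 to 0.85), and within IL, 24 h against 6 h, P2rx4 (-0.0224 to 0.16).

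Of the 10 genes, TNF at 24 h against untreated cells called 6, and 3 with the groups alone. TNF at 24 h against 6 h called 4, but 7 by DESeq2's Wald test, 7 with the strict filter, 8 with the groups alone and 7 with 3 libraries left out. TNF on IL at 6 h called 5, but 3 with the groups alone and 3 to 4 without 1 library. The 6 h difference called 3, but 5 by the Wald test and 6 with no filter, and the 24 h difference 4, but 2 with the groups alone. These counts stand without the share of all genes called in the same fit, so they describe the fits and are no result about the 10 genes. The number called over all genes depended on the fit too. The difference between 24 h and 6 h within IL called 573 genes, 920 by the Wald test and 992 with 3 libraries left out. It called 343 to 375 without IL replicate 3 at 6 h or any IL library at 24 h.

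With the replicate block, P2ry6 between 24 h and 6 h of TNF was called (0.36, adjusted p = 0.0486), as was P2ry2 in the 6 h difference (-0.74, adjusted p = 0.0494), and the block changed no other call. The P2ry6 rise was called in 6 of 14 alternative fits in all, with adjusted p from 0.0126. P2ry14 between 24 h and 6 h of TNF (-0.50 ± 0.19, adjusted p = 0.0638) was called lower in 5 of 14.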
